A study of Mus musculus with 6 samples.

Results

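The genes described here are 8 that are known to be high in the thalamus or in the striatum and that serve as a check of how cleanly the hippocampus was dissected. They were chosen by name, 4 for the thalamus (*Tcf7l2*, *Lef1*, *Prkcd* and *Ramp3*) and 4 for the striatum (*Ppp1r1b*, *Rgs9*, *Adora2a* and *Penk*), out of 25239 genes listed in the counts. All 8 were listed and all 8 passed the filter on low counts that left 14445 genes for testing. The 6 hippocampal RNA libraries came from male C57BL/6 mice 6 to 8 weeks old, 3 labelled WT (Ube3a m+/p+) and 3 labelled Ube3a m-/p+. The second genotype lacks a functional maternal copy of *Ube3a*, the gene of a ubiquitin ligase that neurons express from the maternal copy, and keeps the paternal copy in every cell.

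The thalamus relays sensory and motor signals to the cortex through glutamatergic neurons, and the hippocampus lies directly over its back part. The striatum is built mainly of GABAergic medium spiny neurons that receive dopamine, and it lies farther from the hippocampus. Tissue of either region that is carried along at dissection adds its RNA to the sample, so genes that are strong there are often read as a check. None of the 8 genes belongs to these regions alone. *Tcf7l2* is also used by newly formed oligodendrocytes, *Lef1* by blood vessel endothelium, and *Penk* by some hippocampal interneurons. In bulk tissue, fewer cells of a type and less RNA per cell cannot be told apart.

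The reads counted on genes numbered 7293272 to 8675252 in WT mice and 8871052 to 11314409 in Ube3a m-/p+ mice. Levels are given as CPM, the counts of a gene scaled to the reads counted on all genes of its library. Only counting error and the spread between mice enter the errors given. *Ube3a* itself had 104, 141 and 151 CPM in WT mice 1, 2 and 3, and 96.8, 82.9 and 80.6 CPM in Ube3a m-/p+ mice 1, 2 and 3. All Ube3a m-/p+ mice were below all WT mice (log2 fold change -0.58, standard error 0.12, edgeR adjusted p = 0.0363). *Ube3a* has a GC content of 36.9%, and after correction for GC content and length its log2 fold change was -0.20 and was not called (edgeR adjusted p = 0.240). Exons of *Snhg14* (1803 bp), *9330162G02Rik* and *Gm44560* overlap those of *Ube3a* on the opposite strand, and the strand setting of the counting is not given in the sources used here. The label of the tissue was checked by 13 genes of hippocampal neurons, none of which was at 0 in any library. *Neurod6* and *Wfs1*, which mark pyramidal cells, averaged 228 and 186 CPM, and *Fibcd1*, a gene of CA1 pyramidal cells, 171 CPM. The 13 genes summed to 1317 to 1481 CPM in WT mice and to 1314 to 1477 CPM in Ube3a m-/p+ mice. None was called (edgeR, 4 at an unadjusted p below 0.05 against 24.6% of all genes, 2 called by DESeq2 against 6.69%). Single genes moved both ways under these sums, 7 higher and 6 lower in Ube3a m-/p+ mice. *Neurod6*, *Wfs1* and *Fibcd1* had log2 fold changes of -0.10, -0.34 and 0.11. *Wfs1* was the 1 gene of the 13 without overlap, against 25.0% of all genes. It was at -0.53 after correction for GC content and length (edgeR adjusted p = 0.0566). One of the 13, *Zbtb20*, a transcription factor gene of hippocampal neurons that was looked at after its values were seen, averaged only 2.77 CPM.

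Genes of the choroid plexus, which also borders the hippocampus, varied most. The 9 choroid plexus genes summed to 618, 103 and 2219 CPM in WT mice 1, 2 and 3, and to 2317, 1643 and 109 CPM in Ube3a m-/p+ mice 1, 2 and 3. WT mouse 2 and Ube3a m-/p+ mouse 3 had the least, so that the libraries differed up to 22.4-fold in these genes within and across the genotypes. Their part in the values of the 8 genes was not tested beyond a fit with their level as a covariate, given for *Ppp1r1b*.

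Per length of exon, the 8 genes ranged from a level near 3 to a level near 80 TPM, which scales counts by exon length and depth. The highest was *Ppp1r1b* (mean of the 6 libraries 80.4 TPM, range 58.5 to 99.6), followed by *Penk* (51.5 TPM, 45.7 to 63.3) and *Prkcd* (31.6 TPM, 20.7 to 39.2). *Ppp1r1b* and *Penk* overlapped in their ranges, while *Prkcd* lay below *Penk* in all libraries. *Rgs9* (14.7 TPM, 11.9 to 18.6) and *Ramp3* (11.6 TPM, 9.61 to 13.9) overlapped with each other and lay below *Prkcd*. The lowest 3 were *Lef1* (4.18 TPM, 3.03 to 4.76), *Adora2a* (3.33 TPM, 1.84 to 3.91) and *Tcf7l2* (3.29 TPM, 2.59 to 3.87), whose ranges overlapped.

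Of the 8 genes, 1 differed between the genotypes at an adjusted p below 0.05 with a fold change above 1.2 (edgeR), against 2.01% of all genes tested. That gene was *Ppp1r1b*, which was higher in Ube3a m-/p+ mice, as were 1.02% of all genes. At an unadjusted p below 0.05 there were 3 of the 8 (*Ppp1r1b*, *Prkcd* and *Rgs9*), against 24.6% of all genes, and the same 3 also passed the fold of 1.2, against 19.6%. WT and Ube3a m-/p+ mice were apart without overlap in 2 of the 8 (*Ppp1r1b* and *Tcf7l2*), against 25.0% of all genes. DESeq2 called *Ppp1r1b* alone, with 6.69% of all genes called. It gave no adjusted p for *Tcf7l2*, *Lef1*, *Ramp3* and *Adora2a*, so these could not be called by it whatever their values. No gene of the 8 was called with library size only as the scaling (2.04% of all genes) or with the replicate number as a block (0.00%, and 0.0915% with the GC correction as well). The median log2 fold change was 0.08 over the 4 thalamus genes and 0.38 over the 4 striatum genes, beside 0.0025 over all genes tested.

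**Figure D1:**
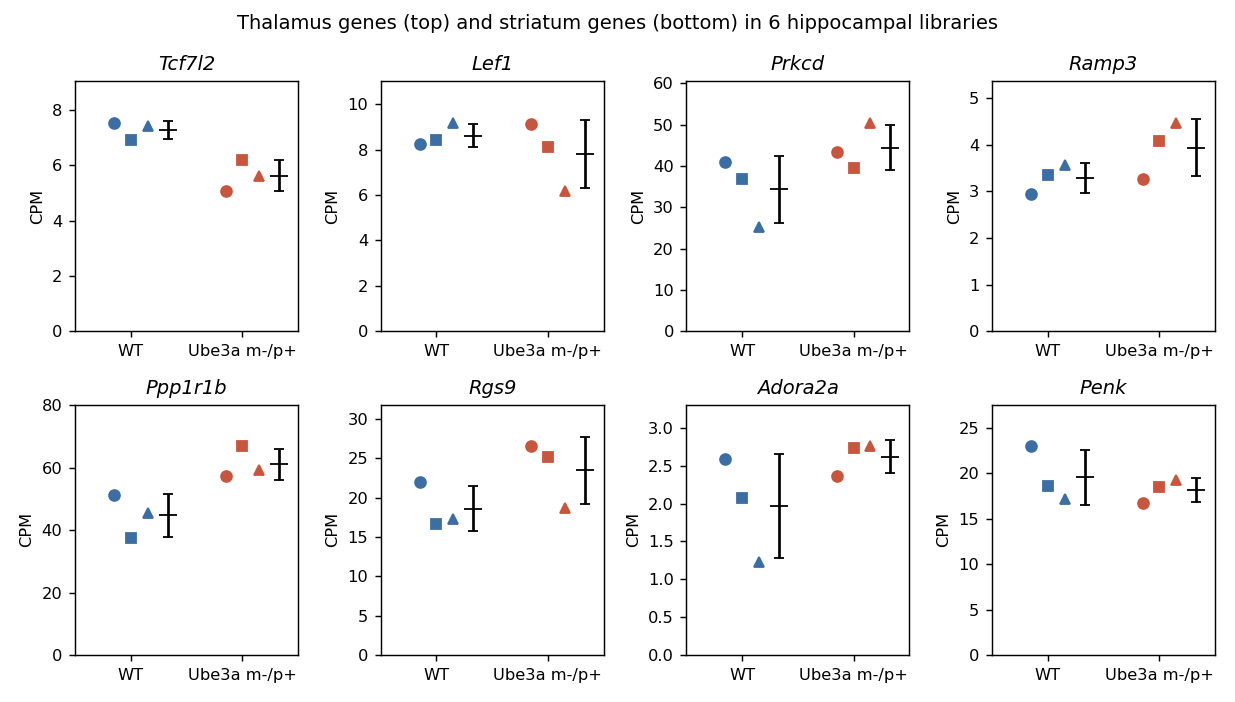
CPM of each gene in each library (circle, square and triangle for mice 1, 2 and 3 of a genotype), with the mean and SD of 3 mice in black, thalamus genes above and striatum genes below. The genotypes are apart in *Tcf7l2* (6.92 to 7.54 against 5.07 to 6.19 CPM) and in *Ppp1r1b* (37.3 to 51.2 against 57.5 to 66.8 CPM), and overlap in the other 6 genes.

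*Tcf7l2* (chromosome 19 of GRCm38, 55741820 to 55933654) encodes a transcription factor of the Wnt pathway that is kept at a high level in adult thalamic neurons. It had 7.54, 6.92 and 7.40 CPM in WT mice 1, 2 and 3, and 5.07, 6.19 and 5.61 CPM in Ube3a m-/p+ mice 1, 2 and 3, on 45 to 70 counts per library. Every Ube3a m-/p+ mouse was below every WT mouse, with means of 7.29 ± 0.327 CPM (SD, n = 3) and 5.62 ± 0.557 CPM (SD, n = 3). The log2 fold change was -0.35 (standard error 0.20, edgeR adjusted p = 0.280), and an exact permutation test of the mice gave a two-sided p of 0.1, the smallest that 3 against 3 allow. Within a genotype the log2 values had an SD of 0.11, which was 0.586 of the SD that counting alone gives at this depth. Newly formed oligodendrocytes also use *Tcf7l2*. Of 7 of their genes none was called (edgeR, 1 at an unadjusted p below 0.05 against 24.6% of all genes, 0 called by DESeq2 against 6.69%). The median log2 fold change of these genes was -0.02. The strongest of these, *Bcas1*, *Myrf* and *Gpr17*, had log2 fold changes of 0.07, 0.20 and -0.07.

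*Lef1* (chromosome 3, 131110471 to 131224356) encodes a second transcription factor of the same family, which acts with beta-catenin in thalamic neurons and in brain endothelium. It had 8.25, 8.41 and 9.19 CPM in WT mice 1, 2 and 3, and 9.13, 8.13 and 6.18 CPM in Ube3a m-/p+ mice 1, 2 and 3. The genotypes overlapped, and Ube3a m-/p+ mouse 3 was lowest. The log2 fold change was -0.13 (standard error 0.19, edgeR adjusted p = 0.722), and without Ube3a m-/p+ mouse 3 it was 0.013 (edgeR adjusted p = 0.984). The 8 endothelial genes summed to 280 to 291 CPM in WT mice and to 242 to 264 CPM in Ube3a m-/p+ mice, with the lowest sum also in Ube3a m-/p+ mouse 3. None of the 8 was called (edgeR, 3 at an unadjusted p below 0.05 against 24.6% of all genes, 2 called by DESeq2 against 6.69%). The median log2 fold change of the 8 was -0.22, and *Flt1*, *Slco1a4* and *Cldn5* had log2 fold changes of -0.16, -0.41 and 0.46. Their part in the values of *Lef1* was not tested.

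*Prkcd* (chromosome 14, 30595354 to 30626210) encodes protein kinase C delta, which is strong in relay neurons of the thalamus. It had 40.9, 36.9 and 25.2 CPM in WT mice 1, 2 and 3, and 43.3, 39.6 and 50.5 CPM in Ube3a m-/p+ mice 1, 2 and 3. WT mouse 3 was the lowest and Ube3a m-/p+ mouse 3 the highest, 2.00-fold apart, and WT mouse 1 lay above Ube3a m-/p+ mouse 2. The means were 34.3 ± 8.13 CPM (SD, n = 3) and 44.5 ± 5.53 CPM (SD, n = 3). This gave a log2 fold change of 0.38 (standard error 0.15, edgeR adjusted p = 0.147). Without WT mouse 3 it was 0.21 (edgeR adjusted p = 0.467), and without WT mouse 1 it was 0.53 and passed the test (edgeR adjusted p = 0.0353), in a fit that called 17.6% of all genes.

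*Ramp3* (chromosome 11, 6658521 to 6677475) encodes a membrane protein that sets the ligand preference of calcitonin-family receptors. It had 2.94, 3.34 and 3.56 CPM in WT mice 1, 2 and 3, and 3.27, 4.07 and 4.47 CPM in Ube3a m-/p+ mice 1, 2 and 3, on 25 to 47 counts per library. The genotypes overlapped through Ube3a m-/p+ mouse 1 (log2 fold change 0.29, standard error 0.26, edgeR adjusted p = 0.517). At this depth the 95% interval of the log2 fold change ran from -0.26 to 0.83.

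The 4 thalamus genes did not rank the libraries alike. The highest library was WT mouse 1 for *Tcf7l2*, WT mouse 3 for *Lef1*, and Ube3a m-/p+ mouse 3 for *Prkcd* and *Ramp3*. The lowest were Ube3a m-/p+ mouse 1, Ube3a m-/p+ mouse 3, WT mouse 3 and WT mouse 1. The ratio of *Prkcd* counts to *Tcf7l2* counts ran from 3.41 in WT mouse 3 to 9 in Ube3a m-/p+ mouse 3. The mean log2 CPM of the 4 genes spanned only 0.10 over the 6 libraries. Among the 7013 tested genes whose own log2 CPM spanned at least 0.5, which leaves out genes as flat as this profile, those most like it by Pearson's r over the 6 libraries were *Gm43915*, *Lime1*, *AU021063*, *Gm5897* and *Cgref1* (r of 0.974 to 0.993).

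The wider thalamus list held 16 other genes, of which 13 were tested. *Gbx2* and *Shox2*, transcription factors that mark thalamic neurons from development on, were looked at after their values were seen. Each had 1 count in all 6 libraries together, in Ube3a m-/p+ mouse 2. Their 0 counts in the other libraries allow up to 0.285 to 0.411 CPM (a limit of 3 counts). Only 3 of the 16 averaged below 1 CPM, so these 2 do not stand for the list. *Slc17a6*, *Ntng1* and *Calb2*, also looked at after their values were seen, averaged 16.8, 35.2 and 11.4 CPM. Their log2 fold changes were -0.17, -0.04 and 0.43, and none was called (edgeR). *Adarb1*, an RNA editing enzyme gene, *Cacna1g*, the gene of a T-type calcium channel, and *Plekhg1* were the most abundant of the list at 216, 91.4 and 40.0 CPM, and had log2 fold changes of 0.011, 0.32 and -0.23.

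One of the 13, *Rora*, fell, and 7 of the 13 had the higher and 6 the lower level in Ube3a m-/p+ mice (median log2 fold change 0.011). *Rora* encodes an orphan nuclear receptor that is strong in the thalamus and the cerebellum and is used in many other cells. It had 27.0, 28.2 and 38.5 CPM in WT mice 1, 2 and 3, and 21.5, 20.1 and 18.4 CPM in Ube3a m-/p+ mice 1, 2 and 3. The log2 fold change was -0.62 (standard error 0.14, edgeR adjusted p = 0.0387), and -0.34 after correction for GC content and length (edgeR adjusted p = 0.165). *Zic1*, a zinc-finger gene of medial thalamus and of the meninges, was looked at after its values were seen. It had 10.8, 10.8 and 13.0 CPM in WT mice 1, 2 and 3, and 18.1, 24.8 and 13.0 CPM in Ube3a m-/p+ mice 1, 2 and 3. Its log2 fold change was 0.71 (edgeR adjusted p = 0.0632), and 0.84 after the correction (edgeR adjusted p = 0.0311). *Zic4*, also looked at after its values were seen, had a log2 fold change of 0.90 without overlap (edgeR adjusted p = 0.105). *Zic1*, *Zic4*, *Calb2*, *Slc17a6* and *Cacna1g* were highest in Ube3a m-/p+ mouse 2. *Adarb1* and *Plekhg1* were highest in WT mouse 1, and *Rora* and *Ntng1* in WT mouse 3. Whether these values are linked was not tested.

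The sum of the meninges genes ranked the libraries of Ube3a m-/p+ mice as *Zic1* did. Its largest part, *Igf2*, was highest in Ube3a m-/p+ mouse 1 (109 CPM). The 8 genes summed to 109, 92.7 and 152 CPM in WT mice 1, 2 and 3, and to 169, 177 and 94.8 CPM in Ube3a m-/p+ mice 1, 2 and 3. The most abundant were *Igf2*, *Col1a2* and *Col1a1*, with log2 fold changes of 0.29, 0.55 and 0.73, and 1 of the 8, *Col1a1*, rose (edgeR adjusted p = 0.0416). After the correction *Col1a1* was at 0.55 and was not called (edgeR adjusted p = 0.0750). Their part in the values of *Zic1* was not tested.

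Of the regions next to the thalamus, the habenula was covered by 8 genes, 5 of them tested. None was called (edgeR, 2 at an unadjusted p below 0.05 against 24.6% of all genes, 0 called by DESeq2 against 6.69%). *Nwd2* (30.8 CPM), *Lrrc55* (27.2 CPM) and *Tac2* (2.55 CPM), a tachykinin gene of the medial habenula, had log2 fold changes of -0.09, -0.26 and 0.85. The sum of the list was 59.4 to 71.9 CPM in all libraries, and *Nwd2* and *Lrrc55* made up most of it. *Pou4f1*, the transcription factor that defines habenular neurons, and *Chrnb4*, the gene of a nicotinic receptor subunit of theirs, were looked at after their values were seen. *Pou4f1* had 1 count in WT mouse 2, 5 counts in Ube3a m-/p+ mouse 3 and 0 in the other libraries. *Chrnb4* had 1 to 3 counts in each library but Ube3a m-/p+ mouse 3, which had 13. *Tac2* was also highest in Ube3a m-/p+ mouse 3 (4.09 CPM). So were *Gpr151*, *Chrna3* and *Gng8* (1.52, 2.66 and 2.85 CPM), looked at after their values were seen. *Lrrc55* was highest in WT mouse 2 (31.4 CPM). The library with the most counts of *Pou4f1* and *Chrnb4*, Ube3a m-/p+ mouse 3, was also the highest in *Prkcd* and *Ramp3*, and the lowest in *Lef1*. That library was the highest in the striatum gene *Adora2a* too, and the lowest in *Nwd2* (27.5 CPM), the most abundant habenula gene. Whether these values are linked was not tested.

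The 6 hypothalamic neuropeptide genes summed to no more than 2.93 CPM in any library, all 6 averaged below 1 CPM, and none reached the filter for testing. *Pomc*, *Agrp* and *Pmch* were the most abundant at 0.911, 0.682 and 0.276 CPM. The 8 genes of neocortical layers summed to 179 to 184 CPM in WT mice and to 137 to 193 CPM in Ube3a m-/p+ mice. One of them fell, *Rorb*, a receptor gene related to *Rora* (log2 fold change -0.60, edgeR adjusted p = 0.0362), and it was -0.35 after correction for GC content and length (edgeR adjusted p = 0.146). *Tshz2*, *Fezf2* and *Lamp5*, the most abundant of that list, had log2 fold changes of -0.07, 0.15 and -0.45. *Lamp5* was not called in the uncorrected edgeR fit (edgeR adjusted p = 0.0503) and was called after the correction (-0.52, edgeR adjusted p = 0.0161). DESeq2 called 2 of the 8 neocortex genes, against 6.69% of all genes.

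**Figure D2:**
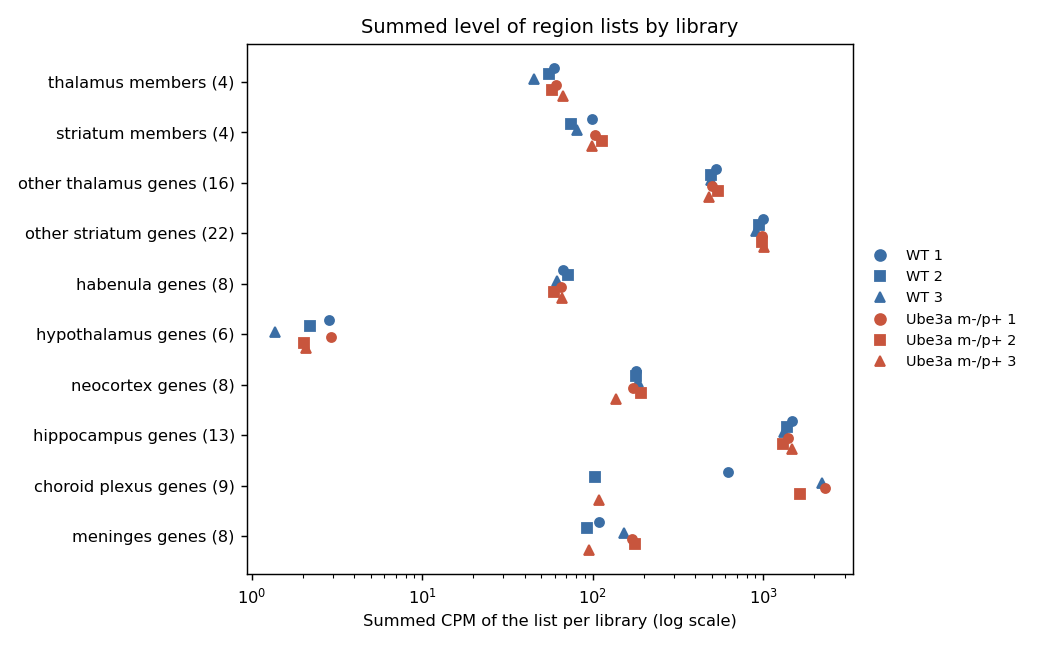
Summed CPM of each gene list in each library on a log axis, with the number of genes in brackets. The 4 thalamus genes sum to between 45.4 and 66.7 CPM and the 4 striatum genes to between 74.6 and 113 CPM, while the choroid plexus genes run from 103 to 2317 CPM.

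*Ppp1r1b* (chromosome 11, 98348404 to 98357796) encodes DARPP-32, the phosphatase inhibitor through which medium spiny neurons respond to dopamine. It had 51.2, 37.3 and 45.5 CPM in WT mice 1, 2 and 3, and 57.5, 66.8 and 59.1 CPM in Ube3a m-/p+ mice 1, 2 and 3, on 324 to 756 counts per library. Every Ube3a m-/p+ mouse was above every WT mouse. The WT mean was 44.7 ± 6.98 CPM (SD, n = 3) and that of Ube3a m-/p+ mice 61.1 ± 4.98 CPM (SD, n = 3). Between them the log2 fold change was 0.47 (standard error 0.12, 95% interval 0.22 to 0.72, edgeR adjusted p = 0.0486). An exact permutation test of the mice gave a two-sided p of 0.1, the smallest possible. The call was lost without WT mouse 2 (log2 fold change 0.36), WT mouse 3 (0.48), Ube3a m-/p+ mouse 2 (0.41) or Ube3a m-/p+ mouse 3 (0.49), with edgeR adjusted p between 0.142 and 0.273. In those fits 0 to 2 of all genes were called (0.00% to 0.0137%). It was kept without WT mouse 1 or Ube3a m-/p+ mouse 1, where 17.6% and 12.5% of all genes were called. With the choroid plexus level of each library as a covariate the log2 fold change was 0.46 (edgeR adjusted p = 0.0492).

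*Ppp1r1b* has the highest GC content of the 8, 61.0% of its longest transcript. Once GC content and transcript length were corrected for within the libraries, its log2 fold change was 0.18 (standard error 0.09, edgeR adjusted p = 0.392). The same correction left *Rgs9*, with 48.2% GC, at 0.37. The first 120 coding bases of both genes are shown to let the base composition be seen, with G and C in capitals. That of *Ppp1r1b* lies on the plus strand of GRCm38 in exons 1 and 2 (chromosome 11, 98349094 to 98350607) and holds 65% G and C. That of *Rgs9* lies on the minus strand in exons 1 and 2 (chromosome 11, 109281483 to 109297994) and holds 53.3%.
Ppp1r1b: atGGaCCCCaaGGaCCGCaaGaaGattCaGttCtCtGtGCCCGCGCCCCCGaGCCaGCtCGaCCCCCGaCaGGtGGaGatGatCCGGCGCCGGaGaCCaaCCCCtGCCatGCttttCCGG
Rgs9: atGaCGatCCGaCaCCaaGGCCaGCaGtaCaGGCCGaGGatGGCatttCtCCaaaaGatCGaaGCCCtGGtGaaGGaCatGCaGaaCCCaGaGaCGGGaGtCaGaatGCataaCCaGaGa

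Over their whole coding sequences the shares were 60.8% and 54.2%. Exons of *1700003D09Rik* on the opposite strand overlap those of *Ppp1r1b* over 460 bp, and whether the counting used strands is not given in the sources used here. *1700003D09Rik* had 13.4 to 17.0 CPM in WT mice and 18.5 to 22.0 CPM in Ube3a m-/p+ mice (log2 fold change 0.50, edgeR adjusted p = 0.0632), so reads of this pair of genes are uncertain. Other overlaps on the opposite strand exist for *Ramp3* (*Gm11978*, 23 counts in all 6 libraries), *Penk* (*A830012C17Rik*, 233 bp) and *Lef1* (*Gm43352*, 1208 bp), and the last 2 overlapping genes were not analysed here.

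*Rgs9* (chromosome 11, 109225355 to 109298129) encodes a regulator of G-protein signalling that shortens dopamine receptor signals in medium spiny neurons. It had 21.9, 16.6 and 17.3 CPM in WT mice 1, 2 and 3, and 26.5, 25.2 and 18.6 CPM in Ube3a m-/p+ mice 1, 2 and 3. The genotypes overlapped because WT mouse 1 lay above Ube3a m-/p+ mouse 3. The log2 fold change was 0.35 (standard error 0.15, edgeR adjusted p = 0.178). Without WT mouse 1 it was 0.49 and passed the test (edgeR adjusted p = 0.0458), in a fit that called 17.6% of all genes.

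*Adora2a* (chromosome 10, 75316877 to 75334784) encodes the adenosine A2a receptor, which marks medium spiny neurons of the indirect pathway. It had 2.59, 2.07 and 1.23 CPM in WT mice 1, 2 and 3, and 2.37, 2.74 and 2.76 CPM in Ube3a m-/p+ mice 1, 2 and 3. These values rest on 9 to 31 counts per library, and WT mouse 3 was lowest with 9. The log2 fold change was 0.42 (standard error 0.33, edgeR adjusted p = 0.455), with a 95% interval from -0.28 to 1.12, and without WT mouse 3 it was 0.19 (edgeR adjusted p = 0.832).

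*Penk* (chromosome 4, 4133531 to 4138819) encodes proenkephalin, the precursor of the enkephalins of the same neurons. It had 23.0, 18.6 and 17.1 CPM in WT mice 1, 2 and 3, and 16.7, 18.5 and 19.3 CPM in Ube3a m-/p+ mice 1, 2 and 3. All Ube3a m-/p+ mice lay below the highest WT mouse and the ranges overlapped (log2 fold change -0.09, standard error 0.14, edgeR adjusted p = 0.731). Without WT mouse 1 it was 0.045 (edgeR adjusted p = 0.868). *Adora2a* and *Penk*, which share their striatal neurons, were highest in different libraries, Ube3a m-/p+ mouse 3 and WT mouse 1.

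The highest library was Ube3a m-/p+ mouse 2 for *Ppp1r1b* and Ube3a m-/p+ mouse 1 for *Rgs9*. The ratio of *Ppp1r1b* counts to *Penk* counts was 2.01 to 2.66 in WT mice and 3.06 to 3.62 in Ube3a m-/p+ mice. The ratios of *Ppp1r1b* counts to *Rgs9* counts (2.25 to 2.63 against 2.17 to 3.17) and to *Adora2a* counts (18.0 to 36.9 against 21.4 to 24.4) overlapped between the genotypes. The mean log2 CPM of the 4 striatum genes spanned 0.52 over the libraries. The tested genes with the most similar profile, among 7013 whose log2 CPM spanned at least 0.5, were *Zfp385a*, *1700110K17Rik*, *Emx1*, *Aifm2* and *Axin1* (Pearson's r of 0.991 to 0.999 over the 6 libraries). Of the 7013, 395 had an r above 0.9 with this profile. *Emx1*, a transcription factor gene of the cortex and hippocampus, is thus 1 of many genes alike over only 6 libraries. The source of this profile was not tested.

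The wider striatum list held 22 other genes, 17 of them tested. None was called (edgeR, 4 of 17 at an unadjusted p below 0.05 against 24.6% of all genes, 0 called by DESeq2 against 6.69%). Of the 17, 12 had the higher and 5 the lower level in Ube3a m-/p+ mice, with a median log2 fold change of 0.16, and of 0.011 after correction for GC content and length. *Gng7*, a G-protein subunit gene, *Adcy5*, the main adenylyl cyclase of medium spiny neurons, and *Pde1b*, a phosphodiesterase gene, were the most abundant at 238, 157 and 144 CPM. Their log2 fold changes were 0.16, 0.19 and 0.12.

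*Drd1*, *Drd2*, *Tac1*, *Isl1* and *Ido1*, also of this list, were looked at after their values were seen. None of them was above 8.18 CPM in any library. They do not stand for the list, in which only 4 of the 22 genes averaged below 1 CPM. *Pde10a*, *Rasd2* and *Foxp1*, also looked at after their values were seen, averaged 95.7, 83.6 and 82.5 CPM. *Drd1*, the D1 dopamine receptor gene of the direct pathway, had 3.61 to 4.68 CPM in the 6 libraries (log2 fold change 0.013, edgeR adjusted p = 0.979). *Drd2*, the D2 receptor gene of the indirect pathway, had 2.12, 2.07 and 0.960 CPM in WT mice 1, 2 and 3, and 1.58, 2.65 and 2.66 CPM in Ube3a m-/p+ mice 1, 2 and 3. Like *Adora2a*, it was lowest in WT mouse 3 and highest in Ube3a m-/p+ mice 2 and 3. *Tac1*, the substance P precursor of the direct pathway, had 6.31 to 8.18 CPM in WT mice and 2.93 to 4.77 CPM in Ube3a m-/p+ mice, without overlap (log2 fold change -0.87, standard error 0.24, edgeR adjusted p = 0.0592). *Isl1* had 0 to 4 counts and *Ido1* 0 to 4 counts per library.

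**Figure D3:**
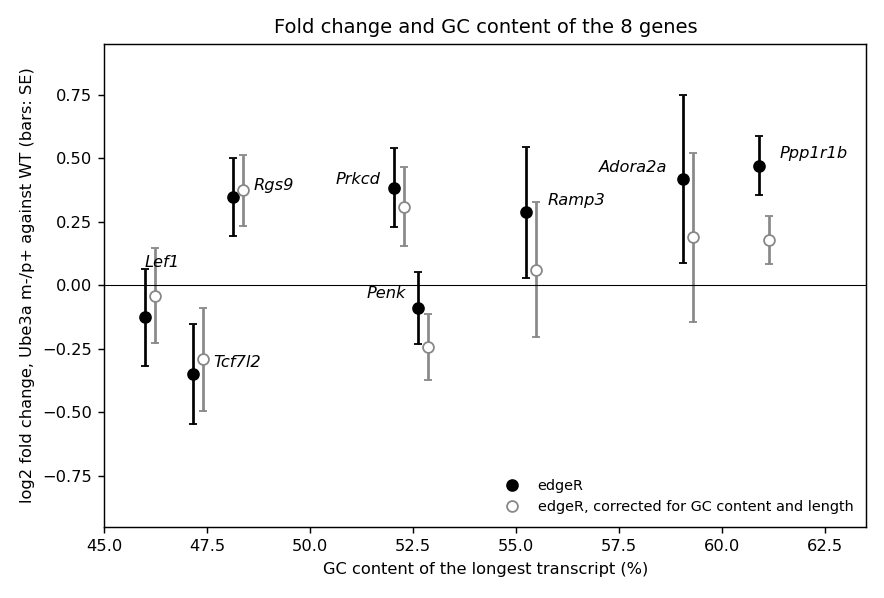
Log2 fold change (Ube3a m-/p+ against WT, bars are standard errors) of each of the 8 genes against the GC content of its longest transcript, before (black) and after (open) correction of the libraries for GC content and length, each pair set slightly apart sideways. *Ppp1r1b* goes from 0.47 to 0.18, *Adora2a* from 0.42 to 0.19 and *Ramp3* from 0.29 to 0.06, while *Rgs9* goes from 0.35 to 0.37.

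The correction takes the trend with GC content and length out of each library, and it moved the 3 genes with the highest GC content most. That order follows in part from the way the correction works, and the cause of the trend was not tested. *Ppp1r1b* (61.0% GC), *Adora2a* (59.2%) and *Ramp3* (55.4%) came down to 0.18, 0.19 and 0.06 on the log2 scale. *Prkcd* (52.2%) went from 0.38 to 0.31 and *Penk* (52.7%) from -0.09 to -0.24. *Tcf7l2* (47.3%) and *Lef1* (46.1%) went from -0.35 to -0.29 and from -0.13 to -0.04. None of the 8 was called after the correction (edgeR adjusted p of 0.197 to 0.952), against 0.648% of all genes. At an unadjusted p below 0.05 there was 1 of the 8, against 2017 of all 14201 genes in that fit. The median log2 fold change of all genes was -0.010.

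The spread over the 6 libraries was small beside that of the choroid plexus genes. The highest library was 1.38 times the lowest in *Penk*, 1.49 times in *Tcf7l2* and *Lef1*, 1.52 times in *Ramp3*, 1.596 times in *Rgs9*, 1.79 times in *Ppp1r1b*, 2.00 times in *Prkcd* and 2.23 times in *Adora2a*. Over the 14438 tested genes without a 0 the median was 1.42 and the 95th percentile 2.84. *Ttr*, the transthyretin gene of the choroid plexus, had 522, 58.8 and 1987 CPM in WT mice 1, 2 and 3. In Ube3a m-/p+ mice 1, 2 and 3 it had 2049, 1439 and 63.0 CPM, so that its ratio was 34.9. The other 2 most abundant, *Kl* and *Clic6*, had ratios of 4.04 and 8.39. None of the 9 choroid plexus genes was called (edgeR, 0 at an unadjusted p below 0.05 against 24.6% of all genes, 0 called by DESeq2 against 6.69%).

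**Figure D4:**
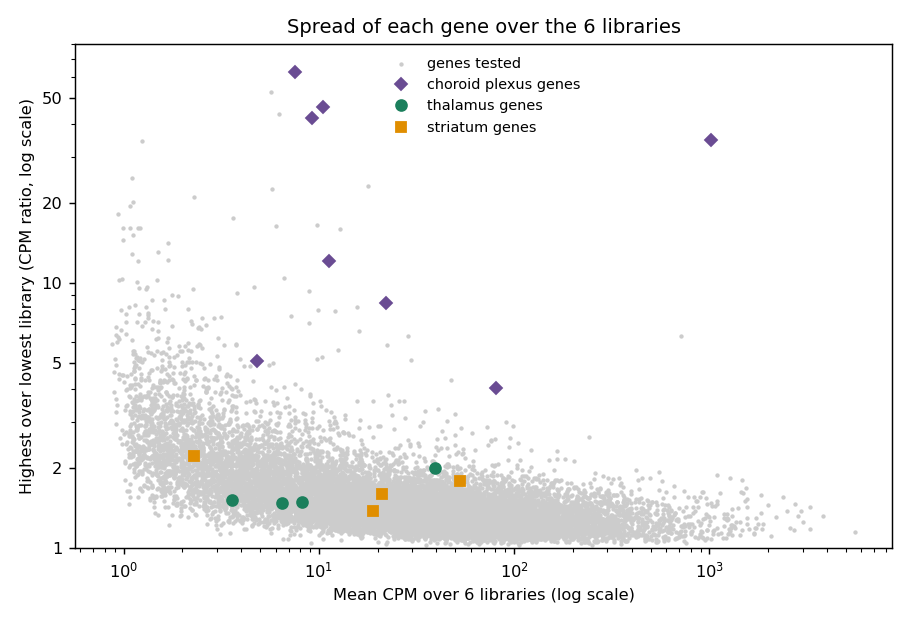
Ratio of the highest to the lowest of the 6 libraries in CPM against the mean CPM, both on log axes, for all tested genes without a 0 (grey). The thalamus genes (circles) and striatum genes (squares) lie between 1.38 and 2.23, and the choroid plexus genes without a 0 (diamonds) between 4.04 and 62.6.

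Within the genotypes, *Prkcd*, *Ppp1r1b* and *Rgs9* varied more than counting alone gives, with SDs of the log2 values 3.63, 2.68 and 2.31 times the counting SD. For *Penk*, *Lef1* and *Adora2a* it was 1.55, 1.27 and 1.18 times, and for *Ramp3* and *Tcf7l2* 0.744 and 0.586 times. The pooled SD of *Prkcd*, 0.29 on the log2 scale, lay at the 80.2 percentile of the tested genes without a 0, and that of *Tcf7l2*, 0.11, at the 27.45 percentile. Over all these genes the median was 0.16.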

How the data were processed

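RNA sequencing counts of 6 hippocampal libraries, 3 WT and 3 Ube3a m-/p+, were analysed. The deposited values are counts, whole numbers of reads per gene symbol, not normalized and not pooled. Per the labels, STAR 2.7.4a, HTSeq and the build mm10 were used by the authors, and the annotation and strand setting are not given in the sources used here. Reads on no gene (54.1% to 55.0% of those listed), ambiguous reads and reads with more than 1 alignment (3.71% to 5.77%) were left out of the library totals. The intervals for 0 counts cover counting error only. Each group held 3 mice. The edgeR p-values set the genotype difference against the spread between mice, which edgeR estimates with information shared over all genes.

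The 8 genes and all 12 gene lists (113 genes: thalamus, striatum, habenula, hippocampus, neocortex, hypothalamus, choroid plexus, meninges, endothelium and newly formed oligodendrocytes) were chosen with earlier results of these data known. Genotypes were compared in R 4.3.3 with edgeR 4.0.16 (filterByExpr, TMM, robust quasi-likelihood F test, genotype as the only factor, two-sided, Benjamini-Hochberg adjustment over 14445 genes). Log2 CPM used a pseudocount of 0.5 CPM. TPM used the union of GENCODE M21 exons on GRCm38, the same assembly as mm10. The GC correction fitted natural splines with 5 degrees of freedom on GC content and length of the longest transcript in each library, over 14201 genes (98.3% of those tested, all 8 genes included). Named genes were the 8, *Ube3a*, the 3 most abundant and every called gene of each list, the 5 genes most alike in profile among those spanning at least 0.5 on the log2 scale, and genes overlapping one of the 8 on the other strand. Genes overlapping *Ube3a* were added. Others are marked as looked at after their values were seen. Alternatives included DESeq2 1.42.0, other scalings and filters, a replicate block, and leaving out each mouse. On simulated counts with 199 tested genes changed 2-fold, 96.5% were found by edgeR, and 6 of the 14345 genes were called falsely. The simulation gave every gene the same variation between mice (a coefficient of 10.2%) and no effect of GC content. Its shares therefore check the code only and do not carry over to smaller changes or to the spread in these libraries.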

Additional observations from a re-analysis of the deposited data

How the results depend on the processing

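The number of genes called, 290, was 967 with DESeq2, 1176 without a filter on low counts, 92 once GC content and length were corrected for, 13 with that correction and the replicate block, 2832 at an unadjusted p with the same fold, and 0 to 2582 with 1 mouse left out. With the replicate number as a block it was 0 (2422 at an unadjusted p below 0.05), and the deviations of same-numbered mice correlated at -0.304, -0.177 and -0.317, so the numbers were not taken as pairs. Of the 4 striatum genes, 1 was called in the reported fit, 0 with library size only, the replicate block, the correction or both together, 2 at an unadjusted p, and 0 to 2 with 1 mouse left out. Of the 4 thalamus genes, 0 were called (1 at an unadjusted p below 0.05, 0 by DESeq2), 1 at an unadjusted p with the same fold, and 0 to 1 with 1 mouse left out. *Ppp1r1b* had an adjusted p of 0.0548 with library size only (edgeR) and 0.216 with the replicate block (edgeR). With 1 mouse left out, *Lef1* ran from -0.24 to 0.013 and *Penk* from -0.18 to 0.045, and they changed sign once each. The other 6 genes kept their direction in every alternative run, and *Adora2a* had no value under the filter of 10 counts in every library. DESeq2 gave no adjusted p for *Tcf7l2*, *Lef1*, *Ramp3* and *Adora2a*. TMM-scaled CPM moved none of the 16 genotype means by more than 1 SD, and pseudocounts of 0.1 or 1 CPM changed no direction. The choroid plexus covariate, chosen after seeing the data, left the counts of called thalamus and striatum genes as they were. The cause of these changes was not tested.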
